A study of Mus musculus with 10 samples.

Results

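The genes described here are 306 genes whose mRNA was lower 4 days after the start of *Pontin* deletion in mouse embryonic stem (ES) cells but was not lower, or lower only by a small amount, at 3 days. They were chosen by their measured values. Each had at least 10 CPM (the reads of a gene, scaled by a library total that was adjusted with the TMM method) before treatment, a log2(CPM + 1) that was lower by 0.7 or more at 4 days, and a log2(CPM + 1) at 3 days that was no more than 0.2 below the starting value. Of 22713 gene IDs, 8876 had at least 10 CPM before treatment, and the 306 genes were 3.45% of them. Rif1 and Ep300 also met these limits and were left out. Of the 306 genes, 305 were annotated as protein coding.

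The study asked how Pontin works with the pluripotency factor Oct4 and with long non-coding RNAs in ES cells. The Pontinf/f; CreER line carries floxed *Pontin* alleles and a Cre recombinase fused to an oestrogen receptor domain, which 4-hydroxytamoxifen (OHT) activates. It was derived from blastocysts and gave 1 mRNA library from untreated cells (WT), 1 from cells treated with OHT for 3 days (OHT 3D) and 1 for 4 days (OHT 4D). The WT library therefore carried the same floxed alleles and CreER as the treated ones and had no OHT. ZHBTc4 ES cells, in which tetracycline (Tc) switches off the remaining Oct4 transgene, gave 1 library after 2 days of Tc (Tc 2D). ZHBTc4 cells infected for 4 days with pLKO lentivirus gave 4 libraries. Of these, 2 carried a control, according to the methods an shRNA to luciferase, and 2 an shRNA to the long non-coding RNA linc1253 (linc1253 KD). Untreated ZHBTc4 cells gave 1 ChIP-seq library for Pontin and 1 for GFP. According to the methods, ES cells were kept on or off fibroblast feeder cells, and no source states that the numbered replicates came from separate cultures.

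Pontin, listed as Ruvbl1, is an AAA+ ATPase that acts with its partner Reptin (Ruvbl2). The pair belongs to the INO80, SRCAP and TIP60-p400 chromatin complexes, and with other cochaperones it helps Hsp90 to assemble large protein complexes such as the PIKK kinases and RNA polymerase II. The longest mRNAs of ES cells encode giant proteins with many repeats or domains, among them ubiquitin ligases, chromatin remodellers, cytoskeletal linkers and motor proteins.

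Ruvbl1 had 198 CPM in WT, 33.3 CPM (OHT 3D) and 50.9 CPM (OHT 4D), so it was low at both times. It was also lower at Tc 2D, with 85.0 CPM, beside 166 and 186 CPM in the shRNA control libraries. The paper reports no significant change of Pontin mRNA or protein after Oct4 depletion. Pou5f1, which encodes Oct4, was at 301 CPM in WT and 21.1 CPM at Tc 2D. Reads on genes ranged from 17187595 to 37951742 over the 8 mRNA libraries. Because of the adjustment the CPM of a library did not sum to one fixed total. The sum was 798811 for WT, 777613 and 775050 for the OHT libraries in order of time, 638591 for Tc 2D and between 978095 and 1015100 in the shRNA libraries, so CPM set side by side between Tc 2D and the shRNA libraries also differ in scale. Feeder fibroblast markers moved with time on OHT. The 30 genes of that list, led by Fn1, Sparc and Vim, summed to 1117 CPM in WT and then 1500 and 1694 CPM on days 3 and 4, with 18 above 1 CPM in WT and 27 at OHT 4D and 0 of them at 0 throughout. The 15 trophectoderm markers summed to 295, 289 and 496 CPM, the 17 primitive endoderm markers to 604, 790 and 731 CPM with Afp at 0, and the 20 pluripotency markers, all above 1 CPM in WT and at OHT 4D, to 5197, 5124 and 5395 CPM. The part of other cell types in the fall described below was not tested. In bulk RNA, fewer cells of a type and less RNA per cell cannot be told apart.

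Over the 306 genes, the median log2 change against WT was 0.09 (range -0.20 to 1.19) after 3 days and -0.87 (range -2.06 to -0.70) after 4 days. These limits follow from the choice of the genes and carry no test. Of all genes with at least 10 CPM in WT, 6.41% were at -0.7 or less at OHT 4D. By the same choice 0 of the 306 were above 0.58 at OHT 4D (2.15% of all genes) or below -0.58 at OHT 3D (5.57%). At OHT 3D, 209 of the 306 were above WT, beside 43.1% of all genes, and 12 were above WT by more than 0.58 on the log2 scale, beside 2.23%. The limit of -0.2 at OHT 3D took the lower values out of the 306 but not out of all genes, so nothing is read from these shares. At OHT 4D 79 of the 306 were lower by 1 or more. The fewest reads behind a value were 225 in WT and 72 at OHT 4D. The 95% exact (Clopper-Pearson) interval of the log2 ratio of CPM at OHT 3D to WT, without the added 1, lay above 0 for 134 genes, below 0 for 46 and over 0 for 126, which the limit at OHT 3D also shaped. No share of all genes is given for these intervals, so nothing is read from their counts. For single genes, the interval of the ratio of OHT 4D to WT is given below as a description. It too is without the added 1, while the log2 changes beside it include the 1. With 1 library per time point, these intervals cover counting error only, and the difference between times has no replicate check.

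**Figure D1:**
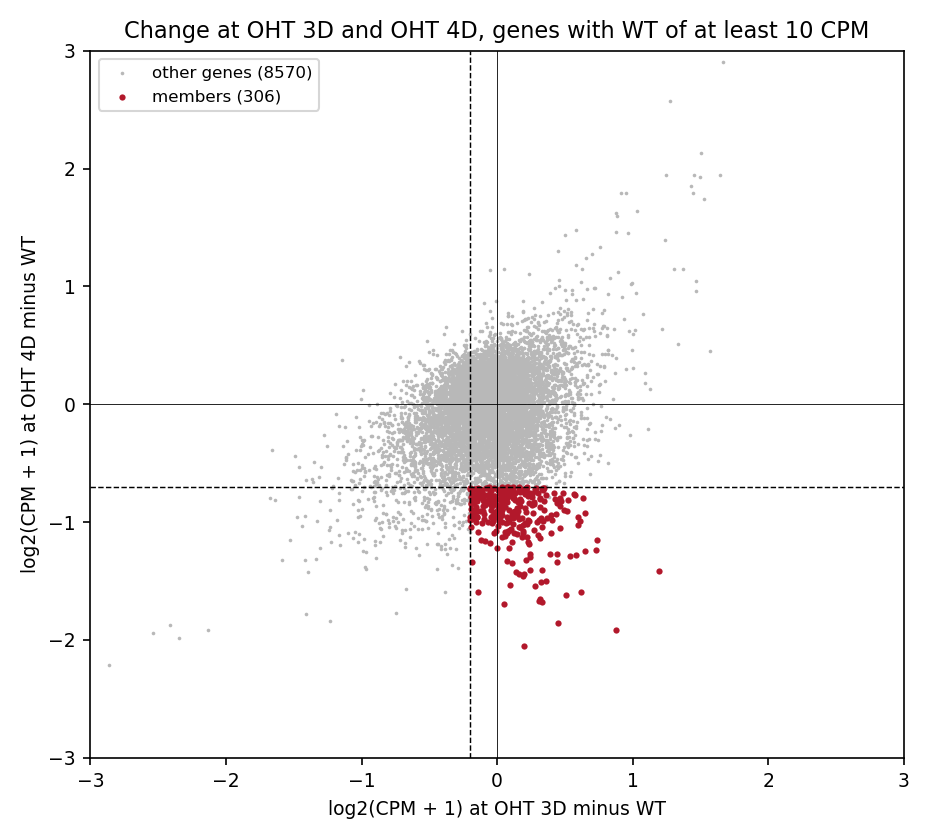
Change in log2(CPM + 1) from WT at OHT 3D (horizontal axis) and OHT 4D (vertical axis) for genes with at least 10 CPM in WT. The 306 chosen genes (red) lie below the dashed line at -0.7 and right of the dashed line at -0.2, the limits that chose them, other genes are grey, and 3 genes lie outside the axes.

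Genes close to each limit looked alike on both sides of it. Sik2, with 10.06 CPM in WT, and Aak1, with 10.10 CPM, were just inside the WT limit, and Igsf9b, with 9.88 CPM, and A830010M20Rik, with 9.48 CPM, were just outside. At OHT 4D, Ncoa1 and Rreb1 were at -0.7007 and -0.7009 and were included, while D3Ertd254e and Csrnp3 were at -0.6999 and -0.6992 and were not. At OHT 3D, Fam73a and E330009J07Rik were included with changes of -0.1996 and -0.1980, and Zfc3h1 and Gas2l3 were left out with -0.2004 and -0.2039.

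The chosen genes had long mRNAs. Their longest annotated transcript had a median of 7290.5 bases, with quartiles of 4831 and 9775 bases, where all genes with at least 10 CPM in WT had a median of 3280 bases. Transcripts over 8 kb belonged to 125 of the 306 genes, beside 5.17% of all genes. Transcripts over 6 kb belonged to 194 of the 306, beside 13.7%. The longest were Macf1 with 23407 bases and Dst with 23285 bases, both of which encode spectraplakins that link actin to microtubules, then Mdn1 with 17970 bases, an AAA ATPase of ribosome assembly, Tnrc6b with 17043 bases, a partner of Argonaute proteins, and Mll3 with 16901 bases, a histone H3 lysine 4 methyltransferase.

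The share of genes that were chosen was higher in each longer class above 3 kb. It was 0.759% of the 395 genes with transcripts of up to 1 kb, 0.903% at 1 to 2 kb and 0.729% at 2 to 3 kb. Above that it was 1.18% at 3 to 4 kb, 2.39% at 4 to 5 kb, 4.14% at 5 to 6 kb and 9.16% at 6 to 8 kb. Over 8 kb it reached 27.2%, or 125 of 459 genes. Length was not used by the rule, but the OHT 4D change was, so these shares describe the genes and carry no test.

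The change at OHT 4D went with length over all expressed genes, not over the chosen ones alone. The median of all genes was 0.28 for transcripts of up to 1 kb, 0.06 at 2 to 3 kb, -0.18 at 4 to 5 kb and -0.60 over 8 kb, on the log2 scale. Among the 334 genes over 8 kb that were not chosen, the median was -0.47. At OHT 3D the medians ran in the other direction, from -0.17 for transcripts of up to 1 kb to 0.10 over 8 kb. Across 8875 genes, Spearman's rho of transcript length with the OHT 4D change was -0.56, and with the OHT 3D change it was 0.24. Both changes share the WT library, genes do not replicate each other, and no p-value is given. The part of transcript length in the OHT 4D fall was not tested.

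**Figure D2:**
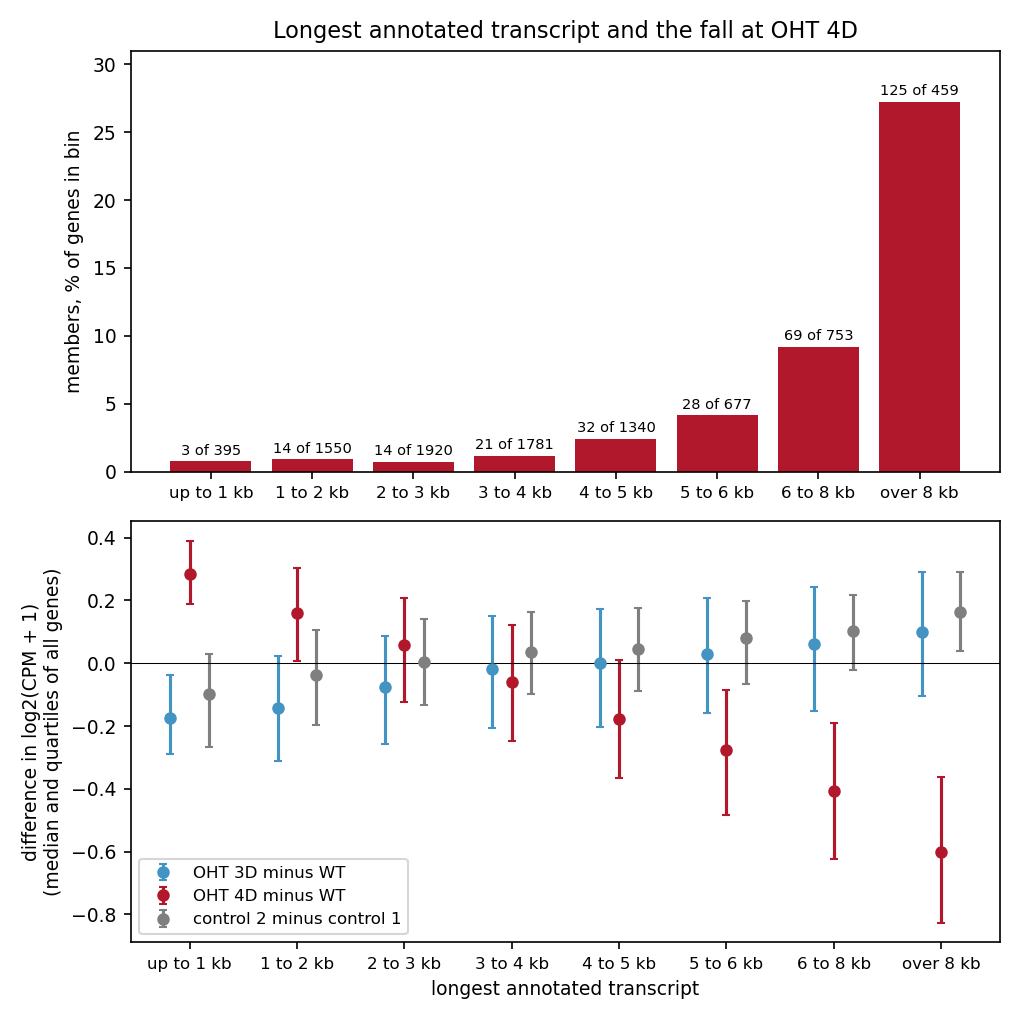
Top, the share of genes with at least 10 CPM in WT that were chosen, in % per class of longest annotated transcript, with the numbers above the bars. Bottom, median (point) and quartiles (bar) of all genes in each class for OHT 3D minus WT, OHT 4D minus WT and control replicate 2 minus control replicate 1, in log2(CPM + 1); at OHT 4D the medians run from 0.28 to -0.60.

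All parts of the transcript were long in these genes, the coding part most. The coding sequence had a median of 4200 bases in the 305 coding genes and 1413 bases in all expressed genes. The 3′ untranslated region had medians of 1872 and 1112 bases, and the 5′ untranslated region of 208 and 174 bases. The longest transcript had a median of 21 exons against 9, and the gene spanned 87233 bases against 25277 bases. Among genes over 8 kb the chosen ones differed from the others in the balance of the parts. The 125 chosen ones had a median coding sequence of 7272 bases and a 3′ untranslated region of 2688 bases, and the 334 others had 4413 and 3970 bases. Across genes, Spearman's rho with the OHT 4D change was -0.53 for coding length, -0.52 for span, -0.43 for the number of exons and -0.31 for the 3′ untranslated region.

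The base composition of these mRNAs was also shifted. The median GC content of the transcript was 46% in the chosen genes and 50.1% in all expressed genes. The share of genes chosen also varied with GC content within broad classes of length, inside which lengths were not matched. Over 6 kb, the share of genes chosen was 18.8% at a GC content of up to 42%, 20.4% at 42 to 46% and 22.1% at 46 to 50%, and then 11.8% at 50 to 54% and 3.09% above 54%. For transcripts of up to 3 kb with a GC content of up to 42%, it was 3.93%. For comparison, the 102 genes with a fall at both OHT times had a median transcript of 4144.5 bases and a median GC content of 51.4%.

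Of the 15 chosen genes with the highest CPM in WT, several are given first and others with their lists. CPM are not divided by transcript length, so values are compared within a gene. Akap12, a scaffold for protein kinase A, had 969, 889 and 589 CPM in WT, OHT 3D and OHT 4D, then 339 at Tc 2D, 861 and 1035 in the controls, and 873 and 978 after linc1253 KD. Srrm2, a scaffold of nuclear speckles, had 645, 670 and 391 CPM in the first 3 of these libraries, 713 at Tc 2D, 709 and 959 in the controls, and 676 and 863 after linc1253 KD. For Prrc2c, an RNA-binding protein of stress granules, the values were 408, 515 and 153 CPM, then 554 at Tc 2D, 614 and 831, and 629 and 727. OHT 4D was the lowest library for Prrc2c, and its log2 change of -1.41, with a 95% exact interval from -1.47 to -1.36, was the largest of the 15.

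Tet1, which oxidises methylcytosine in DNA, had 408, 623 and 204 CPM over the OHT series. It was at 261 CPM at Tc 2D, 388 and 581 in the controls and 363 and 526 after linc1253 KD. Tet1 therefore went up and then down within the OHT series, by 0.61 and -0.99 against WT on the log2 scale. Peg3, an imprinted zinc finger gene, also had its highest value at OHT 3D, with 447, 663 and 264 CPM over the OHT series and 208 CPM at Tc 2D. Its controls were far apart, at 54.7 and 333 CPM, and so were its linc1253 KD libraries, at 60.0 and 215 CPM. Mki67, the proliferation antigen Ki-67, had 296, 261 and 168 CPM, Ckap5, a microtubule polymerase, had 281, 272 and 159 CPM, and Enah, an actin regulator, had 348, 377 and 208 CPM over the OHT series. The receptor phosphatase gene Ptprf had 398, 368 and 240 CPM, and Ankrd17, which encodes an ankyrin repeat protein, had 268, 309 and 158 CPM.

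Of 22 gene lists, 12 held chosen genes, which were 71 of the 306. The lists were compiled with results of these data known, so their counts are descriptions. Beside them stands the background that 3.45% of all genes with at least 10 CPM in WT were chosen. The lists with chosen genes had median transcripts of 4675.5 to 11363 bases, longer than the 3280 bases of all genes. Of all genes at 6 to 8 kb and over 8 kb, 9.16% and 27.2% were chosen. At OHT 4D, 29.1% and 52.1% of these classes were lower than WT by more than 0.58. The part of length in the list counts was not tested.

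Giant ubiquitin ligases and deubiquitinases, which attach or remove ubiquitin, had the largest share, with 9 of 19 measured genes chosen. At OHT 4D, 15 of the 19 were lower than WT by more than 0.58 and none higher, with a median of -0.73 (all genes: 10.1% lower by that much), and the median transcript was 11363 bases. Huwe1, a HECT ligase of Mcl1 and p53, had 908, 896 and 425 CPM over the OHT series. In the ZHBTc4 libraries it had 678 CPM at Tc 2D, 707 and 1022 in the controls and 651 and 840 after linc1253 KD. Its value at OHT 4D was the lowest of the 8 libraries on the deposited scales, with a log2 change of -1.09 and a 95% exact interval from -1.13 to -1.06. Usp9x, a deubiquitinase, had 512, 521 and 294 CPM, then 367 CPM at Tc 2D, 452 and 613 in the controls and 431 and 548 after linc1253 KD. Other chosen genes of the list were Usp34, Ubr3, Herc2, Mycbp2, Ubr1 and Gm15800 (now Hectd4), with log2 changes between -1.05 and -0.73 at OHT 4D.

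Of the chromatin remodelling ATPases and their partners, which move or evict nucleosomes, 12 of 33 were chosen and 13 were lower by more than 0.58. Atrx, which deposits histone H3.3 in heterochromatin, had 602, 690 and 296 CPM over the OHT series. It had 316 CPM at Tc 2D, 316 and 569 in the controls and 295 and 491 after linc1253 KD. Bptf, the large subunit of NURF, had 200, 241 and 112 CPM, and 269 at Tc 2D, 241 and 304 in the controls and 263 and 289 after linc1253 KD. Chd9, a chromodomain helicase, showed the largest log2 change of the list with -1.53, with 123, 131 and 41.8 CPM. Ep400, the ATPase of the TIP60-p400 complex, which also holds Pontin, had 151, 174 and 90.5 CPM. The other chosen genes were Arid2, Pbrm1, Chd2, Chd6, Chd7, Shprh, Hltf and Smarca1, with changes from -0.88 to -0.72. Srcap, the ATPase of another Pontin complex, is split over 2 gene IDs of the same name in the annotation. The upstream ID was among the 306, with 38.7, 48.1 and 11.5 CPM, and the other, which stood for Srcap in the list, had 45.8, 41.0 and 55.2 CPM (log2 change 0.26 at OHT 4D), so the 2 IDs moved in opposite directions.

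Of the histone methyltransferases and demethylases 6 of 35 were chosen, of which 3 methylate lysine 4 of histone H3. Mll1 (now Kmt2a) had 62.7, 68.3 and 31.6 CPM over the OHT series and 202 CPM at Tc 2D, against 86.7 and 99.7 CPM in the controls and 79.3 and 84.7 CPM after linc1253 KD. Mll3 (now Kmt2c) had 86.8, 101 and 39.2 CPM, and Setd1a had 38.3, 39.99 and 22.5 CPM. Ash1l, a methyltransferase of lysine 36, Kdm5a, a demethylase of lysine 4, and Jmjd1c completed the set. Of acetyltransferases, Mediator subunits and coactivators 5 of 34 were chosen, namely Taf1, Myst3 (now Kat6a), Brwd3, Med12 and Ncoa1. Ep300, which met the limits but was left out by name, counts among the 34 as not chosen. The histone acetyltransferase Myst3 went from 96.4 and 121 CPM to 46.3 CPM, a log2 change of -1.04.

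Of the PIKK kinases and the DNA damage response 7 of 30 were chosen, and 16 of the 30 were lower by more than 0.58 at OHT 4D. Rif1, which met the limits but was left out by name, counts among the 30 as not chosen. PIKKs are giant kinases that signal DNA breaks, nutrient state or faulty mRNAs. Smg1, the PIKK of nonsense-mediated mRNA decay, had 132, 162 and 65.9 CPM over the OHT series, and 286 at Tc 2D, 177 and 204 in the controls and 146 and 178 after linc1253 KD. Atm, which responds to double-strand breaks, had 59.5, 73.6 and 27.0 CPM, and 87.8, 73.5, 90.4, 79.3 and 92.7 CPM in the same order of ZHBTc4 libraries. Prkdc, the catalytic subunit of DNA-PK, had 45.4, 39.5 and 23.0 CPM over the OHT series. The chosen genes that are not kinases were Brca2, Trp53bp1, Bod1l and the translesion polymerase gene Rev3l. Brca2, which acts in homologous recombination, had 90.7, 99.7 and 51.2 CPM.

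RNA decay and surveillance genes had 6 of 33 members chosen, of which Smg1 is also in the list above. Xrn1, the cytoplasmic 5′ to 3′ exonuclease, had one of the largest falls of all, from 37.8 CPM in WT and 39.32 after 3 days to its lowest value after 4 (log2 change -1.69). The Argonaute gene Eif2c2 (now Ago2), the slicer of RNA interference, had 172, 197 and 62.0 CPM. Its partner genes Tnrc6a and Tnrc6b and the related Eif2c1 (now Ago1) changed by -0.73, -0.78 and -0.74 on the log2 scale.

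Centrosome and spindle scaffolds had 11 of 30 genes chosen, and spectrins, talins and large motor proteins 7 of 25. Cenpe and Cenpf, which bind kinetochores to microtubules, had 176, 194 and 93.8 CPM and 175, 183 and 103 CPM over the OHT series. Cep350, a scaffold of centrioles, had 35.5, 47.1 and 18.1 CPM, and 130 CPM at Tc 2D against 59.2 and 62.5 CPM in the controls. The other scaffolds were Ckap5, Cep192, Pcm1, Aspm, Clasp2, Kif14, Akap9 and Cep290. Dync1h1, the heavy chain of cytoplasmic dynein, had 474, 443 and 267 CPM, and 636 at Tc 2D, 502 and 566 in the controls and 443 and 481 after linc1253 KD. Macf1 had 249, 251 and 127 CPM and Dst 189, 174 and 84.5 CPM, with 532 and 626 CPM at Tc 2D. Myo5a, Kif1b, Kif13a and Dync2h1 were the other chosen genes of that list.

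Smaller counts came from cohesin, condensin and their loaders, with 3 of 24 chosen (Nipbl, Pds5a and Smchd1), and from guanine exchange factors and GTPase regulators, with 4 of 21 (Arhgap5, Ralgapb, Arhgef11 and Dock4). Nipbl, the cohesin loader, had 119 CPM in WT, 158 CPM after 3 days and 60.0 after 4. Nucleoporins had 1 of 25 chosen (Ranbp2), and RNA polymerase II with elongation and splicing factors 1 of 30 (Srrm2). None was chosen of 45 cytosolic ribosomal proteins, 39 respiratory chain subunits, 12 mitochondrially encoded mRNAs, 20 pluripotency markers and 19 p53 targets, nor of the 5 feeder, 5 primitive endoderm and 4 trophectoderm markers with at least 10 CPM in WT. The ribosomal proteins had a median transcript of 1059 bases and a median log2 change of -0.20 after 3 days and 0.24 after 4 days of OHT, and the respiratory chain subunits 1079 bases, -0.20 and 0.27. The mitochondrially encoded mRNAs, the RNA quality list, summed to 5229, 5733 and 6424 CPM over the OHT series, with mt-Nd4l at 0, and had a median log2 change of 0.28 at OHT 4D. Their part in the fall of the chosen genes was not tested. No replication-dependent histone reached 10 CPM in WT, and no nuclear-retained long RNA of that list was matched.

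**Figure D3:**
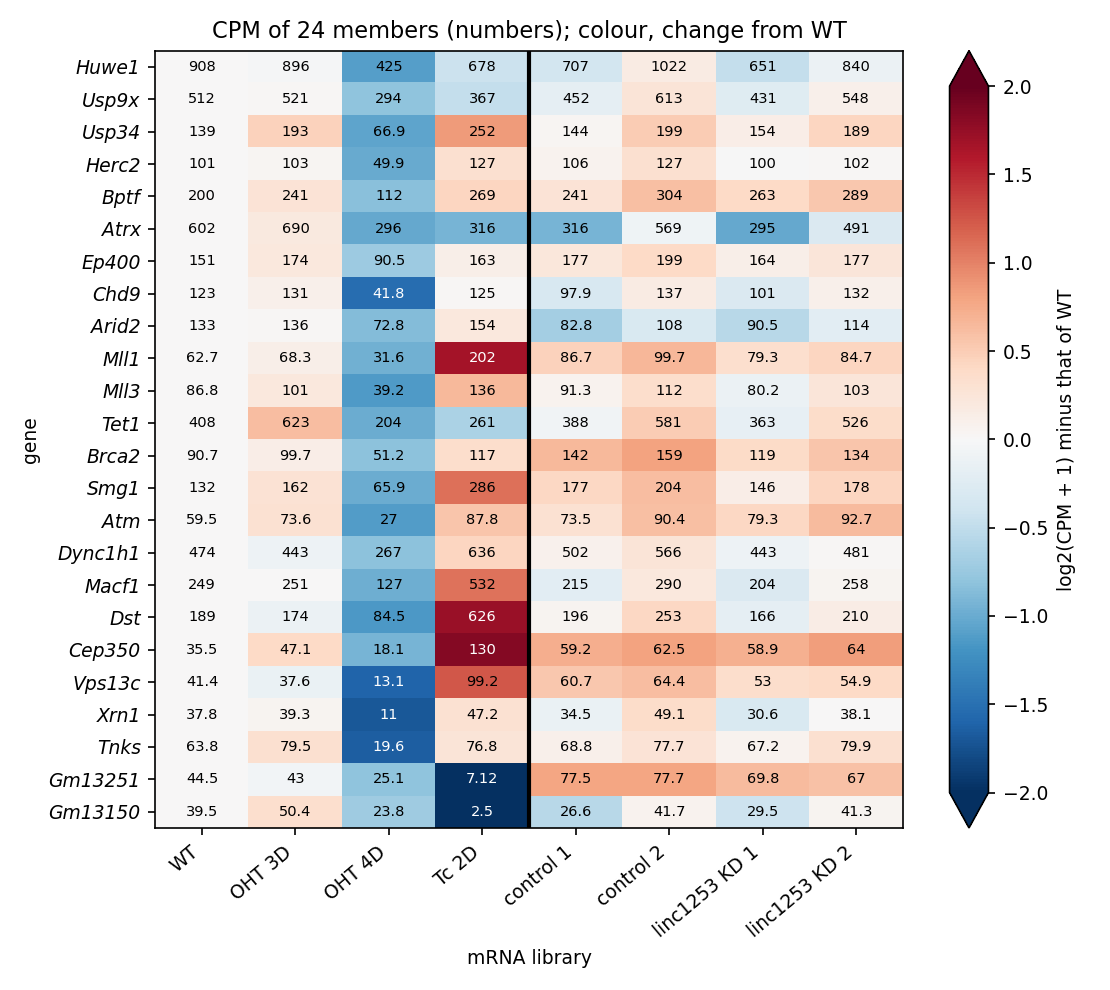
CPM (numbers) of 24 chosen genes (rows) in the 8 mRNA libraries (columns); colour gives log2(CPM + 1) minus that of WT, from -2 (blue) to 2 (red). The thick line parts the separately normalised tables, so colours to its right also hold the difference between tables; OHT 4D is blue in every row.

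The largest fall at OHT 4D was in Lmbrd2, which encodes a membrane protein. It had 21.7, 25.02 and 4.47 CPM over the OHT series, a change in log2(CPM + 1) of -2.06. The 95% exact interval of its log2 ratio without the added 1, a larger fall at such low CPM, ran from -2.60 to -1.97. Its ZHBTc4 values stayed between 17.96 and 24.3 CPM. The zinc finger gene Zfp871 had 14.7, 27.7 and 3.15 CPM over the OHT series and 65.6 CPM at Tc 2D. Cbl, a ubiquitin ligase for receptor tyrosine kinases, had 31.9, 43.8 and 8.10 CPM. Then came Xrn1, the copper transporter gene Atp7a, the upstream ID of Srcap, the poly-ADP-ribosyl transferase gene Tnks, the aminopeptidase gene Lnpep, Prrg4 and Vps13c, with log2 changes from -1.69 to -1.59. Tnks had 63.8, 79.5 and 19.6 CPM over the OHT series, and between 67.2 and 79.9 CPM in the 5 ZHBTc4 libraries. The 79 genes that were lower by 1 or more had a median transcript of 5499 bases, beside 7290.5 bases for all 306.

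A further 2 groups were noticed after their values were seen. All 4 measured Vps13 genes, which encode bridge-like lipid transfer proteins, were chosen, with a median transcript of 12446.5 bases. Vps13a had 32.8, 35.2 and 15.2 CPM over the OHT series, Vps13b 65.8, 68.4 and 30.5 CPM, Vps13c 41.4, 37.6 and 13.1 CPM, and Vps13d 42.8, 48.2 and 20.3 CPM. None of 24 other Vps genes, with a median transcript of 3179.5 bases, was chosen.

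The second group was of short genes. Of the 306 genes, 31 had a longest transcript of up to 3 kb (43.5% of all genes), and 17 of the 31 were named Zfp or Gm (2.77% of all genes of up to 3 kb). The shortest were Gm13150 with 511 bases, Gm17386 with 741, Gm7292 with 995, Gpx2 with 1067 and Gm10130 with 1068. Gm17386 had the largest rise at OHT 3D of the 306, from 24.7 to 57.7 CPM, before 8.63 CPM at OHT 4D. Gpx2, a glutathione peroxidase gene, had 25.2, 27.1 and 11.5 CPM, and in ZHBTc4 cells 0.07 CPM at Tc 2D, 0.46 and 7.57 CPM in the controls and 1.06 and 5.48 CPM after linc1253 KD.

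Several of these genes are neighbours. Runs were sought as 3 or more chosen genes with gaps of at most 500 kb, and 5 were found. Each run begins and ends at a chosen gene. The share chosen within a run is therefore high by its definition and is a description only. Between positions 144562529 and 146959307 of chromosome 4 (NCBIM37), 8 of the 14 genes with at least 10 CPM in WT were chosen. They were Vps13d, Gm13242 (now Zfp980), Gm13247 (now Zfp981), Gm13251 (now Zfp992), Zfp600, Gm13150, Gm13145 (now Zfp978) and Gm13154 (now Zfp985). Clustered zinc finger genes are near copies of each other, and according to the methods a read could align to several places before the reads per gene were counted. How such reads were counted is not given in the sources used here, so the values of these genes are uncertain. Gm13251 had 44.5, 43.0 and 25.1 CPM over the OHT series, but 7.12 CPM at Tc 2D against 77.5 and 77.7 CPM in the controls and 69.8 and 67.0 CPM after linc1253 KD. For Gm13242 the values were 82.5, 105 and 46.3 CPM, then 22.1 CPM at Tc 2D and between 174 and 213 CPM in the shRNA libraries. Apart from Vps13d, the chosen genes of this stretch were all low at Tc 2D, with log2 differences from the ZHBTc4 controls between -3.30 and -2.66. A second stretch, on chromosome 2 from 150007491 to 150151944, held Gm14139, Gm14124 and Gm10130, which were all 3 of its expressed genes. The other runs held 3 chosen of 9 genes on chromosome 12, 3 of 7 on chromosome 17 and 3 of 4 elsewhere on chromosome 2.

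The Tc 2D library was not used to choose the genes, but its contrast with WT shares the WT library with the choice. It also came from another cell line than WT, so line and treatment cannot be told apart in that contrast. Against WT, the 306 genes had a median log2 difference of 0.24 at Tc 2D, where all genes had -0.21. More than 0.58 above WT were 90 of the 306 genes, beside 13.4% of all genes, and more than 0.58 below were 53, beside 30.1%. Against the ZHBTc4 control libraries instead, on a common median-ratio scale, the median was 0.27 for the 306 genes and -0.08 for all. The control libraries were infected with lentivirus and, according to the methods, run on another sequencer model than Tc 2D, so infection, sequencer and treatment cannot be told apart in this contrast either. Then 89 were higher by more than 0.58, beside 17.4%, and 42 lower, beside 24.5%. Tc 2D lay above both controls for 177 of the 306 (40.4% of all genes) and below both for 84 (49.9%).

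The largest rises against the ZHBTc4 controls were in Ppp2r3a, a phosphatase subunit gene, the splicing factor gene Mbnl2 and Zfp871. On the deposited scale Ppp2r3a had 50.4 CPM at Tc 2D, against 12.6 and 12.3 CPM in the controls, and Mbnl2 had 134 CPM against 36.6 and 46.2 CPM. Large falls were in Gm13154 and Gm13150, of the chromosome 4 stretch, with 5.18 and 2.502 CPM at Tc 2D. Tc 2D values also went with length. For transcripts over 8 kb, the median difference from the ZHBTc4 controls was 0.35 for the chosen genes and 0.35 for the others. For 6 to 8 kb it was 0.31 and 0.14.

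The replicates of the shRNA experiment differed in these genes. Control replicate 2 was above control replicate 1 for 288 of the 306 genes, beside 55.3% of all genes, with a median log2 difference of 0.24 (all genes 0.03). After linc1253 KD, replicate 2 was above replicate 1 for 267 of the 306, beside 54%, with a median of 0.17 (all genes 0.02). These libraries were not used to choose the genes. The difference was also seen within classes of length, although the chosen genes over 8 kb were longer than the others of that class, with median transcripts of 10269 and 9212.5 bases. Over 8 kb the control replicates differed by 0.26 in the 125 chosen genes and 0.11 in the 334 others, and at 2 to 3 kb by 0.17 and 0.00. GC content went with it more closely than length did, with a Spearman's rho across genes of -0.50 for GC content and 0.25 for length. At a GC content of up to 42% the control replicates differed by 0.28 in the 76 chosen genes and by 0.18 in all 923 genes, and above 54% by 0.07 in the 10 chosen genes and by -0.12 in all 2621. The part of this replicate difference in the OHT 4D fall was not tested.

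Summed over the 306 genes, reads made up 3.28% of all reads on genes in WT, 3.62% after 3 days of OHT and only 1.81% after 4. The share was 4.53% at Tc 2D, 2.70% and 3.23% in the controls and 2.69% and 3.05% after linc1253 KD. OHT 4D was thus lowest and Tc 2D highest. The 578 genes over 8 kb that were not chosen, at any CPM, had the same order within the first table, with 3.97%, 4.41%, 3.09% and 5.66%. Genes of up to 2 kb ran the other way, with 22.6%, 20.9%, 26.4% and 17.97%. Of the 306 genes, 272 had their lowest value of the first table at OHT 4D (25.8% of all genes with at least 10 CPM in WT) and the other 34 at Tc 2D (48.7%). The limits of the choice put OHT 4D below WT and OHT 3D in each of the 306, so neither of these could be lowest. The highest value was at Tc 2D for 168 (30.4% of all genes), at OHT 3D for 95 (18.2%) and in WT for 43 (22.2%). OHT 4D was highest for 29.1% of all genes and by the choice could not be for the 306, which raises their shares in the other libraries.

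**Figure D4:**
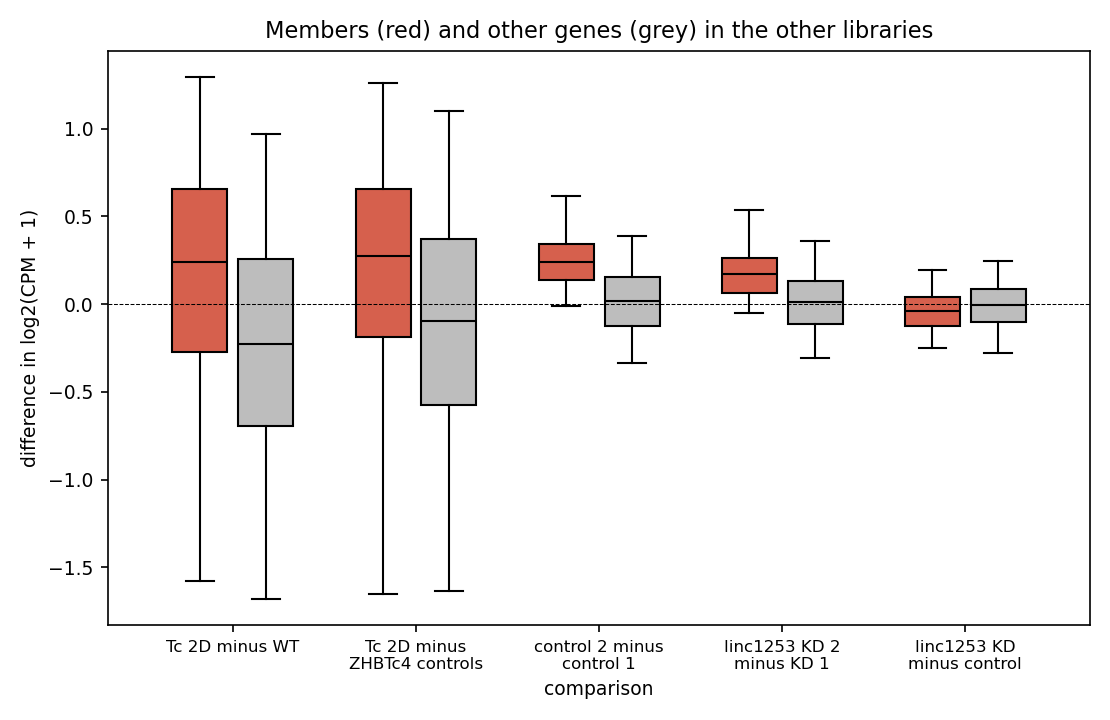
Differences in log2(CPM + 1) for the 306 chosen genes (red) and other genes with at least 10 CPM in WT (grey) in 5 comparisons. The comparison with WT shares that library with the choice of the genes, and the other comparisons use no library that chose them. Lines, boxes and whiskers give the median, the quartiles and the 5th and 95th percentiles; the chosen genes have medians of 0.24 and 0.17 between replicates and -0.04 for linc1253 KD against control, which changes sign when some libraries are left out.

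Knockdown of linc1253 gave no call in these genes without pairing the replicates, and 58 with it. All 306 were tested among 13407 genes by limma with trend on log2(CPM + 1), 2 libraries against 2, and 0 passed an adjusted p of 0.05, as was so for 0.0% of all genes. At an unadjusted p below 0.05, 3 of the 306 were higher and 7 lower by limma, beside 3.7% and 3.75% of all genes. The counts were 3 and 8 by edgeR and 2 and 5 by DESeq2. For these no share of all genes is given, so nothing is read from them. At an adjusted p of 0.05 edgeR called 0 of the 306 and 0 of all genes. DESeq2 called 50 of the 13407 genes and 0 of the 306, of which 2 had no adjusted p and could not be called. With the replicate number as a block, limma called 58 of the 306, 16 higher and 42 lower, and 1960 of all 13407 genes. The libraries of one number deviated together (r = 0.67 across genes), but no label says that a number marks a shared culture. The median log2 difference was -0.04, with a median standard error of 0.13. Its sign depended on single libraries, as it was -0.16 without control replicate 1, 0.08 without control replicate 2, 0.05 without knockdown replicate 1 and -0.12 without knockdown replicate 2. The smallest p among them belonged to Slfn9, a Schlafen family gene, which had 7.57 and 10.02 CPM in the controls and 4.77 and 5.17 CPM after knockdown (log2 difference -0.70, SE 0.17, limma adjusted p = 0.55). Next was Eif2c2, with 204 and 233 CPM in the controls and 143 and 172 CPM after knockdown (log2 difference -0.47, SE 0.12, limma adjusted p = 0.56). In both genes the groups did not overlap. Tex15 also had a large difference of -0.66, with 18.4 and 35.1 CPM against 11.5 and 21.3 CPM, and there the groups overlapped. The largest positive differences included 0.42 for Grhl2 and 0.39 for Gm14139. Both knockdown libraries were above both controls for 20 of the 306 genes (18.8% of all genes) and below both for 52 (19.2%). Since no source says that the replicates were separate cultures, these p-values measure only the spread between these libraries.

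Pontin ChIP-seq reads were taken in a window that began 2.5 kb before the gene start and ended 500 bases after it. Only protein coding genes were counted, which were 305 of the 306. Of these, 297 had reads in both libraries, with a median of 87 Pontin and 25 GFP reads over the 305 genes. The median log2 ratio of Pontin to GFP, after scaling to the reads of each library, was 0.46 for the chosen genes and 0.48 for all expressed genes. It was above 1 for 66 of the 297, beside 18.3% of all genes. These values depended on the settings, with medians of 0.12 and 0.14 on a median-ratio scale (24 of the 297 above 1, beside 7.45%), 0.77 and 0.73 within 1 kb of the start, and -0.23 and -0.45 over promoters with at least 50 GFP reads, which 11 of the chosen genes had. Genes over 8 kb that were not chosen had a median of 0.52. The 9 genes without a ratio, of which 1 was not counted, were Gm13242, Gm13251, Gm13145, Gm13150, Zfp600, Gm14295, Gm14326, Zfp955b and Fam111a. All but the last are zinc finger or Gm genes. According to the methods, only uniquely aligned ChIP reads were kept, so near copies may lose reads. The part of this in the missing ratios was not tested.

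**Figure D5:**
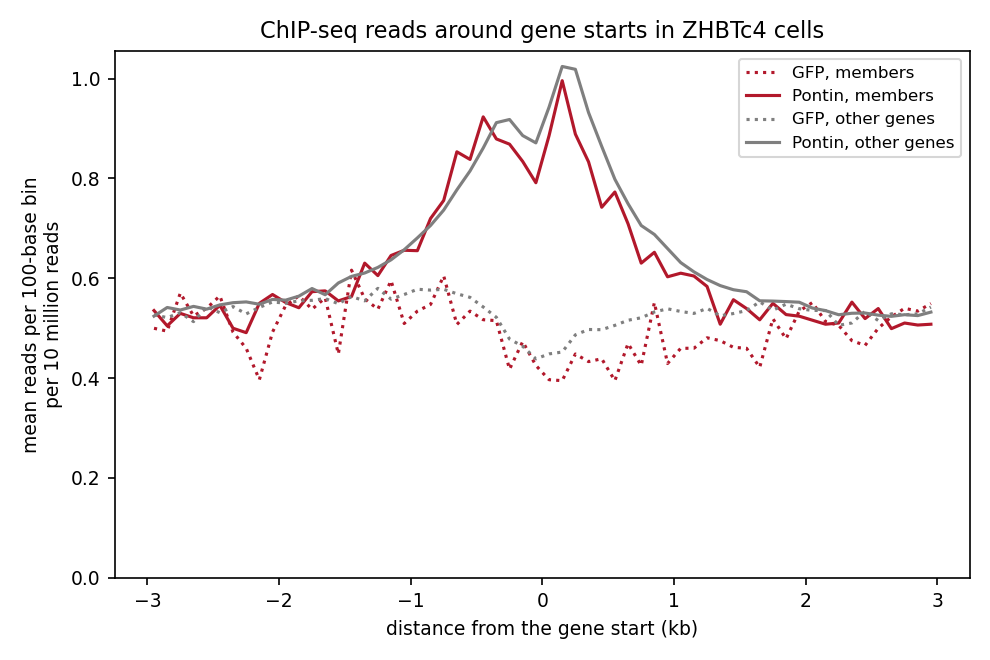
Mean reads per bin of 100 bases and per 10000000 reads, from 3 kb upstream to 3 kb downstream of the gene start, for Pontin (solid) and GFP (dotted) in the chosen genes (red) and in other genes (grey). At 150 bases after the start the Pontin lines are at 0.996 and 1.02 and the GFP lines at 0.395 and 0.452, chosen genes first.

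The promoters of 3 chosen genes are shown as examples of the range of the Pontin to GFP ratio. Each is read on the strand of the gene from 250 bases before to 50 bases after the annotated start in NCBIM37. Mll1 had the highest ratio of Pontin to GFP among chosen genes with at least 20 GFP reads, with 244 Pontin and 25 GFP reads (log2 ratio 2.04). Bptf, a remodeller, had 75 and 12 reads (log2 ratio 1.40). Both counts were below the medians of the chosen genes, 87 and 25, and its GFP reads were fewer than 20. Gm10130 had the lowest ratio among those with at least 20 GFP reads, with 58 and 73 reads (log2 ratio -1.58). Its GFP reads were the most of all the chosen genes, so these ratios also follow the GFP reads. With 8 GFP reads, Gm14124 was lower still (log2 ratio -4.24), but that ratio rests on very few reads in both libraries. Capitals mark GC boxes (GGGCGG on either strand), the letters that Sp1 binds. The sequences are at chr9:44689330-44689629, chr11:106993392-106993691 and chr2:150149188-150149487.
Mll1: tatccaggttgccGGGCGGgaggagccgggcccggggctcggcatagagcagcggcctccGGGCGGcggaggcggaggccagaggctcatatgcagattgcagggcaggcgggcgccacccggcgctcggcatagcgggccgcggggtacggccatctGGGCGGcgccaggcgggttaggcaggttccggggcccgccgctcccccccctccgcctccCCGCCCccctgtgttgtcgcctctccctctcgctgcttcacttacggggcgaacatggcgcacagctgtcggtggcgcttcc
Bptf: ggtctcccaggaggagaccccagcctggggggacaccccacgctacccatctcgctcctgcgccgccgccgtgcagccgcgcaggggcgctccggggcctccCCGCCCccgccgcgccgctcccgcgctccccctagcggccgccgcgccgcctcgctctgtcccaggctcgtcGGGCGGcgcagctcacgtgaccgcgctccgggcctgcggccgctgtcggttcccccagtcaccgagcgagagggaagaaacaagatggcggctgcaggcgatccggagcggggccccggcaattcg
Gm10130: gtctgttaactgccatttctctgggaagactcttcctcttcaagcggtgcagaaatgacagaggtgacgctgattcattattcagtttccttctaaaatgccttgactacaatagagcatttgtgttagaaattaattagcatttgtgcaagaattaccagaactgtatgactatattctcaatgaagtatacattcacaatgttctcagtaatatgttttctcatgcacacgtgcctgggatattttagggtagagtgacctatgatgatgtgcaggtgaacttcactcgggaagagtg
Mll1 held 4 GC boxes and 34 CpG dinucleotides in these 300 bases, Bptf held 2 GC boxes and 42 CpG dinucleotides, and Gm10130 held no GC box and 4 CpG dinucleotides. A match of these letters is a description, not a bound site.

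Promoter letters of the chosen genes were set beside those of all expressed genes, the chosen ones included, with no test of the difference. A GC box stood in 67.5% of the 305 promoters read and in 65.8% of those of all genes with at least 10 CPM in WT. CCAAT stood in 38.7% and 39.7%, TATAAA in 9.18% and 6.27%, the ETS letters CCGGAAG in 16.1% and 20.02%, and the E box CACGTG in 10.2% and 10.9%, each searched on both strands, and none of these strings holds another. The median number of CpG dinucleotides was 25 in the promoters of the chosen genes and 21 in those of all expressed genes, and the median GC content was 63.3% and 61.0%.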

How the data were processed

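The authors trimmed mRNA reads with cutadapt, aligned them to NCBIM37 with TopHat (poly(A) TruSeq libraries), used HTSeq to count reads per gene, and deposited CPM scaled by TMM in edgeR. WT, OHT 3D, OHT 4D and Tc 2D are in one table and the shRNA libraries in another, each normalised on its own. Versions are not given in the sources used here. All values (100%) lay within 0.01 read of whole reads, and these recovered reads were the counts used for intervals, edgeR and DESeq2. For ChIP-seq, the authors used Bowtie2 and deposited a line for each aligned read that holds its mapping score (5 or more).

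The genes and the lists were chosen with earlier results of these data known. Genes named are the 15 with the highest CPM in WT, the 10 largest falls, the 5 longest and 5 shortest, list members, those next to each limit, and the 3 largest rises and falls at Tc 2D and after knockdown, besides Ruvbl1 and Pou5f1. Others (list markers, the 2 genes left out of the choice, gene families, neighbours, genes without a ChIP ratio and promoter examples) were named after their values were seen. A pseudocount of 1 CPM was added before log2. Lengths came from the GENCODE annotation of NCBIM37, matched for all 306 genes, with the longest transcript per gene; newer symbols came from RefSeq. The knockdown was tested with limma 3.58.1 (trend) over genes above 1 CPM in at least 1 shRNA library with Benjamini-Hochberg adjustment, two-sided. Alternatives were edgeR 4.0.16, DESeq2 1.42.0, other limits, pseudocounts, scales and lengths, a replicate block and leaving out each library. The main limma fit and edgeR were also run on simulated data whose replicates varied independently. Those data lack the shared deviations of same-numbered libraries, so they say nothing of the calls with or without the block. Intervals cover counting error only, as reads carry no molecular identifiers. Python 3.11.15 and R 4.3.3 were used. Single-library contrasts have no test. Not analysed here were lincRNAs and genes outside these tables. Some of the genes that this naming rule selects are not reported here.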

Additional observations from a re-analysis of the deposited data

How the results depend on the processing

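The number of chosen genes, 306, stayed within 1.5 times under 8 other settings and was 494 with a limit of 0.58 and 79 with a limit of 1 on the fall at OHT 4D, which follows from the limits. The median length of 7290.5 bases became 6677.5 without a minimum in WT, 5499 with the limit of 1, 8329.5 with all exons joined (all genes 3987), 3604.5 for the median over annotated transcripts (1805) and 87233 for the gene span (25277), above the value of all genes each time it was compared. At Tc 2D the median of 0.24 was 0.095 against the ZHBTc4 controls as deposited (all genes -0.26). For linc1253 knockdown, calls without each library in turn are not given. There the spread comes from the other group alone, and the lone library is assumed to vary like it. The median log2 difference moved to -0.16 without control replicate 1 and 0.08 without control replicate 2. It was 0.05 without knockdown replicate 1 and -0.12 without knockdown replicate 2. With the replicate block 58 of the 306 were called, 16 higher and 42 lower (1960 of 13407 genes). Same-numbered libraries deviated together with r = 0.67 across genes, but with 2 pairs and no label for a shared culture the numbers are not taken as pairs, and the cause was not tested. The median Pontin to GFP ratio of 0.46 was 0.41 with 1 read per position and strand (all genes 0.44), 0.77 within 1 kb of the start (0.73), 0.12 on the median-ratio scale (0.14) and -0.23 over the 11 promoters with at least 50 GFP reads (-0.45). The median-ratio scale takes the same constant from every log2 ratio. GFP reads divide the Pontin reads, so a minimum on them selects low ratios in chosen and all genes alike. Depth limits the lowest values, since 3 reads are worth 0.0773 to 0.138 CPM.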

Other observations

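Gene name families, noticed after their values were seen, held chosen genes in different shares. Of all genes with at least 10 CPM in WT, 3.45% were chosen. Among them, 16 of 195 Zfp genes were chosen (8.21%), including Zfp318, Zfp292, Zfp609 and Zfp445. Of genes whose name is Gm and a number of 5 digits that begins with 1, 15 of 35 were chosen (42.9%). The 35 had a median transcript of 2505 bases, shorter than that of all genes. Such names do not mark 1 family. The 15 include Gm15800 (now Hectd4) and genes of the chromosome 4 run, some now named Zfp, whose values are uncertain. Of the chromodomain helicase (Chd) genes 4 of 10 were chosen, of the kinesin (Kif) genes 6 of 34, of the Cep genes 5 of 21 and of the Arid genes 3 of 8, with median transcripts of 8611, 5547.5, 5629 and 5612.5 bases. None was chosen of 49 Rpl, 46 Mrpl and 19 Ndufa genes, with medians of 1037, 1252 and 960 bases. By chromosome, the share of genes chosen ranged from 1.62% on chromosome 11 (12 of 740) to 5.30% on chromosome 13 (16 of 302), apart from the 12 mitochondrial genes, of which none was chosen.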
